A study of Mus musculus with 6 samples.

Results

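Glucose use was followed through 41 genes that encode glucose transporters, the enzymes of glycolysis and of the pentose phosphate pathway, the gate to the mitochondrial use of pyruvate and the control of the hypoxia response. They were listed by function, with earlier results of these data known, and looked up by symbol. Only array probe sets annotated to 1 gene symbol were taken. Of the 41 genes, 37 were represented by 78 such probe sets. All 37 passed the filter on low values, among 11529 genes tested in all. Gpi1, Eno1 and G6pdx were not analysed here, and Gapdh was represented only by control probe sets, which are described apart.

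The RNA came from mouse bone marrow cells that were sorted as lineage-negative and Sca1-positive, a gate that holds haematopoietic stem cells and other early progenitors. WT mice were compared with mice that lack the nuclear receptors Nr4a1 and Nr4a3 (DKO), which were bred from both single knockout lines on a C57BL/6 and 129SvJ hybrid background. The labels give no strain for WT. The 3 Affymetrix arrays of each group were hybridised with separate pools, each of 10 to 20 mice at 2 to 3 weeks of age, so every replicate is a pool and n = 3 throughout. The comparison asks which transcripts of these cells depend on the receptors, which are transcription factors of the NR4A family. Differences are DKO minus WT on the log2(signal + 16) scale with their standard error (SE), signals carry an SD, and a gene is said to have risen or fallen when its adjusted p in limma was under 0.05.

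Cells take up glucose through GLUT transporters, trap it as glucose 6-phosphate with a hexokinase and split it in glycolysis to pyruvate. Lactate dehydrogenase turns pyruvate to lactate, while the pyruvate dehydrogenase complex feeds it into the mitochondrion unless pyruvate dehydrogenase kinases switch that complex off. The pentose phosphate pathway branches off at glucose 6-phosphate and supplies NADPH and ribose. Haematopoietic stem cells are known for a glycolytic metabolism in a poorly oxygenated marrow niche, in which the transcription factor HIF-1 alpha and the pyruvate dehydrogenase kinases Pdk2 and Pdk4 take part.

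Of the 37 genes 1 fell and 0 rose. The one that fell was Ldhb, the lactate dehydrogenase subunit of heart and other oxidative tissues, and Ldha, the subunit of glycolytic tissues, lay on the other side of zero. Among all tested genes 0.633% fell and 1.08% rose. At an adjusted p under 0.10 the same gene was lower and 4 were higher, Pfkp, Pkm, Ldha and Aldoa, where 1.47% of all genes were lower and 1.86% higher. At an unadjusted p under 0.05 there were 9 higher and 3 lower of the 37. Of all 11529 tested genes, 877 were higher and 997 lower at that limit. The median difference over the 37 genes was 0.16, against -0.0078 over all tested genes, and 24 of the 37 (64.9%) were above zero, against 49.2% of all. Centring each array on its median shifted all differences up by 0.11 and left 27 of the 37 above zero. The 3 DKO signals lay above the 3 WT signals in 8 of the 37 genes, a share above the 10.7% of all genes. In 5 genes they lay below, close to the 11.3% of all. The genes were listed with earlier results of these data known, so these shares and medians describe the list and were not tested. By step, the median difference was highest for lactate handling, at 0.71 over 4 genes that ranged from -1.79 to 0.87. Aldolase and triose isomerase came next, at 0.41 over 3 genes (-0.67 to 0.71). It was lowest for phosphofructokinase and its regulators, at -0.36 over 5 genes (-0.56 to 0.98). Each of these steps held genes of both signs, so its median does not give the direction of the step.

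**Figure D1:**
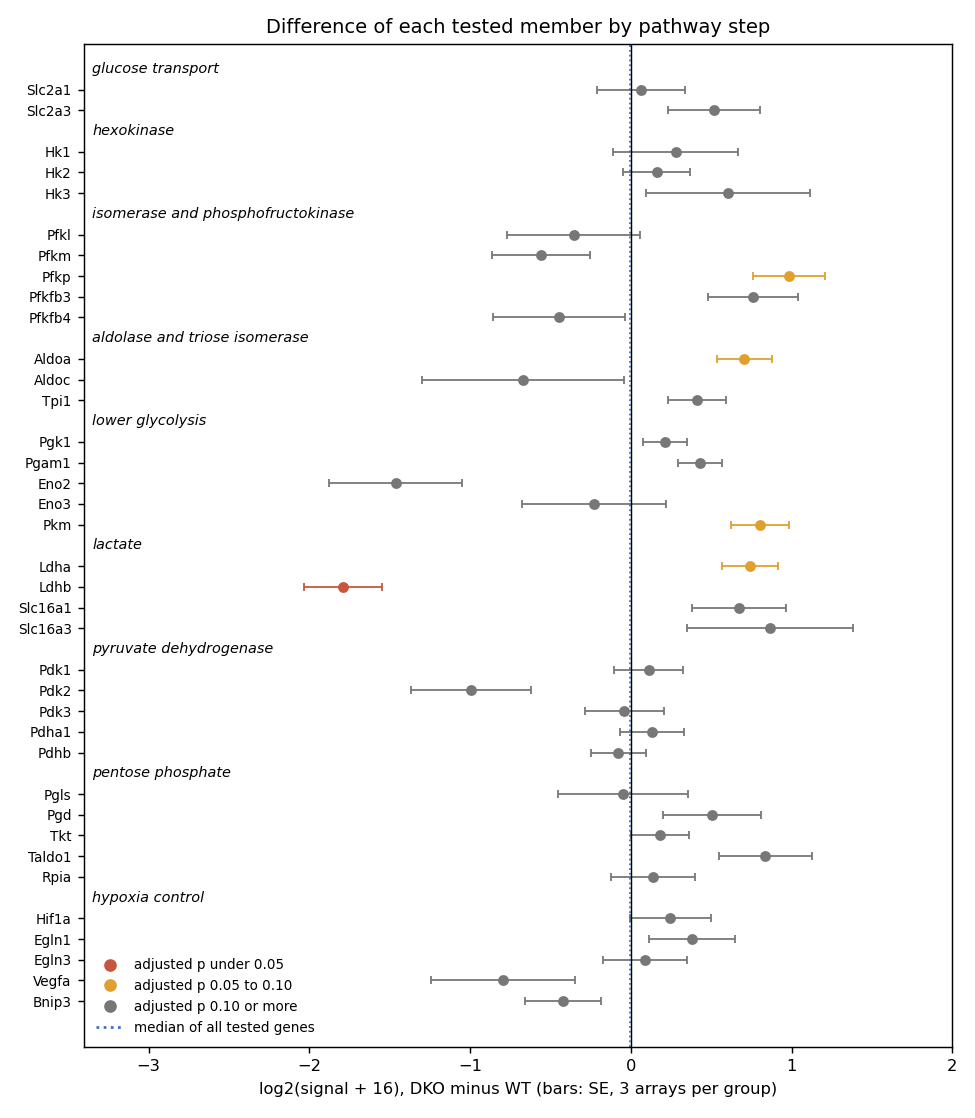
Points give the log2(signal + 16) difference, DKO minus WT, of each of the 37 tested genes, grouped by pathway step, with bars for the SE (3 arrays per group). Ldhb, at -1.79, is the point past an adjusted p of 0.05, and Pfkp, Aldoa, Pkm and Ldha, at 0.71 to 0.98, have an adjusted p between 0.05 and 0.10.

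The 250 bases before the annotated start of Ldhb, Ldha and Pfkp are shown because these genes carry the lactate dehydrogenase and phosphofructokinase differences described next. They are RefSeq sequences of build GRCm38.p6 on the strand of the gene, and capitals mark the HIF core motif, ACGTG or GCGTG, on either strand. The Ldhb stretch is chr6:142507958-142508207 (minus strand), the Ldha stretch chr7:46845554-46845803 (plus strand, the first of 2 annotated starts) and the Pfkp stretch chr13:6648772-6649021 (minus strand).
Ldhb: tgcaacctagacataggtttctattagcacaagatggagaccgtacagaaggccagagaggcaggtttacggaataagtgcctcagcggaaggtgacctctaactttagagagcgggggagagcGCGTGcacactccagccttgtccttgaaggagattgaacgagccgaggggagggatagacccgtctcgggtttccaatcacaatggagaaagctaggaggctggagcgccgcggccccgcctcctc
Ldha: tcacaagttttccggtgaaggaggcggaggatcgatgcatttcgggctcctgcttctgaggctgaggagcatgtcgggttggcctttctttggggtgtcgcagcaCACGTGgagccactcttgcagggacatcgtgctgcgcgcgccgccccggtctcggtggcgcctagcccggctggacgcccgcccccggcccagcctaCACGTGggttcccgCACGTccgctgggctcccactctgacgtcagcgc
Pfkp: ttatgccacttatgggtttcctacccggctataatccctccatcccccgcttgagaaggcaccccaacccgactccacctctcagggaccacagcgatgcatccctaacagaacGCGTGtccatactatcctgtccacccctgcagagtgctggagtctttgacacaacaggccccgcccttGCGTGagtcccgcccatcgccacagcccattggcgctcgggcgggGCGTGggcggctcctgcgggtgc

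Ldhb held 1 match and Pfkp 3, each GCGTG on the strand printed. Ldha held 5 matches of ACGTG, of which 4 come from 2 copies of CACGTG, a palindrome that matches on both strands and is also the E-box that MYC and other factors bind. The motif was present in 45 of 56 windows of 40 of the 41 genes (80.4%) and in 38.6% of all 32851 windows of the same length. The motif holds a CG, and the windows of the listed genes were richer in G and C, with a median of 60.4% against 52.4%. The part of base composition in the motif share was not tested. The monomer element of NR4A receptors, AAAGGTCA, was found in 1 of the 56 windows, at Eno1, and in 1.34% of all windows. These are matches of letters in a short window and do not show binding.

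The lactate step held the gene that fell, together with 3 genes above zero. The brightest Ldhb probe set gave signals of 3242, 4019.5 and 4377 in WT and 789, 1239 and 1364 in DKO. Every DKO signal was below every WT signal. The means were 3879 ± 580.3 in WT and 1130.4 ± 302 in DKO, and the difference of -1.79 ± 0.24 (3.46-fold lower) had an adjusted p of 0.00391 in limma. The 3 other Ldhb probe sets gave -1.52, -1.61 and -1.60, with adjusted p of 0.0134, 0.00340 and 0.00740, so all 4 passed and none of their groups overlapped. These were the 4 calls among the 77 tested probe sets of the listed genes. The 4 probe sets read 1 gene in the same RNA and are not replicates. With an array left out the Ldhb difference lay between -1.94 and -1.55 and the call held in 6 of 6 cases. It was lost in 1 of 16 alternatives, without an intensity trend in the variance model (adjusted p = 0.0632), and adjusted p over the alternatives began at 0.00252.

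Ldha signals were 6115, 7591 and 9043 in WT and 11470.3, 11565 and 14846 in DKO. The groups did not overlap. The difference was 0.74 ± 0.17 (1.67-fold), with an adjusted p of 0.0650 in limma, past 0.05 in 4 of 16 alternatives, among them the fit without WT replicate 3 (adjusted p = 0.0446; range 0.0193 to 0.302). Within an array, the log2 difference of Ldha and Ldhb was 0.91, 0.91 and 1.04 in WT and 3.83, 3.21 and 3.43 in DKO. It was higher in DKO by 2.53 ± 0.19, several times the range within either group. An exact permutation test of 3 arrays against 3 cannot go below p = 0.1 two-sided, which this pair reached, and the value adjusted over 16 isoform pairs was 0.267. The within-array difference does not depend on the scaling of the arrays, but levels of 2 probe sets cannot be compared, so it shows unequal change and not which subunit was the more abundant.

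**Figure D2:**
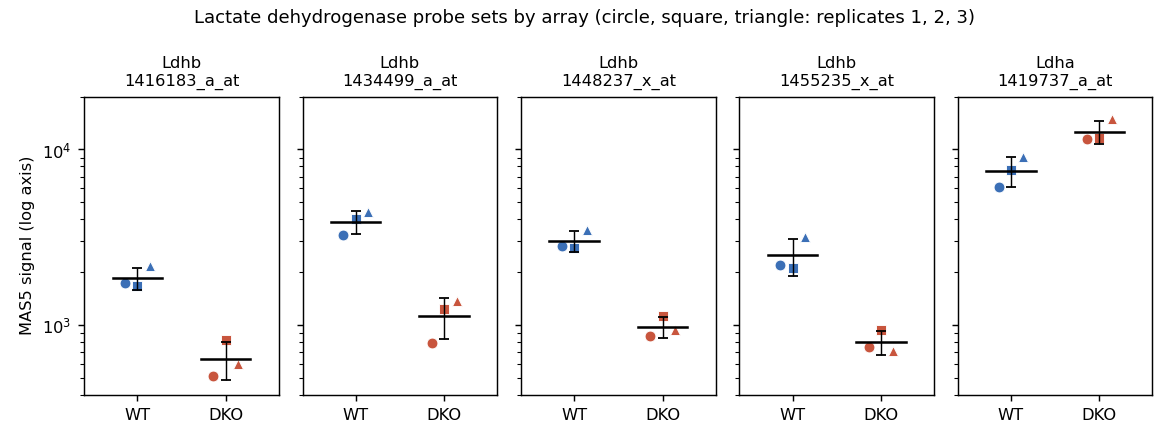
MAS5 signals (log axis) of the 4 Ldhb probe sets and the Ldha probe set in the 3 WT (blue) and 3 DKO (red) arrays, with the mean and SD of each group as lines. In each Ldhb panel the DKO arrays lie below all WT arrays, and in the Ldha panel they lie above them.

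In bulk RNA, fewer cells of a type and less of a transcript per cell cannot be told apart. Markers of several cell types moved with genotype in these arrays. The summed signal of 6 stem cell markers was 30669 to 37370.3 in WT and 13295 to 17365 in DKO and all 6 fell. That of 8 T and NK cell markers was 646 to 1415 in WT and 9329.9 to 13895 in DKO, with 7 that rose, and that of 8 mast cell, basophil and eosinophil markers was 1360.3 to 12538 in WT and 25458 to 31974 in DKO, with 7 that rose. The summed signal of 6 B lineage markers was 2097.2 to 8492.5 in WT and 1513.3 to 1806.5 in DKO. All 5 that were tested lay below zero and 0 fell. The B lineage sum of 8492.5 was that of WT replicate 2, and the other WT arrays gave 2097.2 and 2334.1. Of 7 monocyte and macrophage markers, 4 lay above zero, 2 of which rose (Ccr2 and Ly86), and 3 below. The sums of that list overlapped. The progenitor genes Kit, a growth factor receptor, and Cd34 were both present. Kit had a mean signal of 2779 ± 312 in WT and 1825 ± 144 in DKO, without overlap. For Cd34 it was 3543 ± 352 in WT and 2056 ± 226 in DKO, also without overlap, and neither fell by the adjusted p. The pan-leukocyte gene Ptprc overlapped, at 8682 ± 675 in WT and 10108 ± 1286 in DKO. In WT, every signal of Cd3e, Gzmb, Fcer1a and Ccr3 was under the filter limit of about 53.2. These markers passed the filter through their DKO arrays. The part of these cell types in the Ldhb and Ldha values was not tested.

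The monocarboxylate transporters carry lactate and pyruvate across the cell membrane. Slc16a1, which serves import and export, gave 1951, 4263 and 1777 in WT and 4519, 3742 and 3577 in DKO. WT replicate 2 lay among the DKO arrays, and the difference was 0.67 ± 0.29 (adjusted p = 0.321 in limma). Without WT replicate 2 it was 1.07 with an adjusted p of 0.0237, the 1 of 16 alternatives in which Slc16a1 passed. A dimmer Slc16a1 probe set lay at -0.013, with overlap. The mean over its probe sets gave 0.33 (adjusted p = 0.702 in limma). Slc16a3, the exporter of strongly glycolytic cells, was dim, at 127, 153 and 30.8 in WT and 182, 196 and 147 in DKO, and its difference of 0.87 ± 0.52 did not pass (adjusted p = 0.487).

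WT replicate 2 stood apart from the other WT arrays also in marker sums. Its neutrophil sum was 82089, against 17202 to 50997 in the 5 other arrays. Its erythroid sum was 29266, against 2412 to 11219. The monocyte and macrophage sum was 28853 in this array, against 8668 to 17830 in the 5 others. Its mast cell, basophil and eosinophil sum was 12538, against 2978 and 1360.3 in the other WT arrays. Its B lineage sum was the highest too. Of the 37 genes, Hk1, Hk3, Slc16a1 and Rpia were over 1.5 times brighter, by their brightest probe sets, in that pool than in both other WT pools, at 821, 567, 4263 and 4023. The part of those cells in these signals was not tested.

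Neither glucose transporter passed the test. Slc2a1, the widespread glucose transporter GLUT1, gave 1494, 1798 and 2843 in WT and 1902, 1648 and 2776 in DKO. Slc2a3, the high-affinity GLUT3, gave 3251, 2842 and 1469 in WT and 4195, 2659 and 3609 in DKO. The groups overlapped for both. The differences were 0.062 ± 0.28 and 0.52 ± 0.29 (adjusted p = 0.951 and 0.443 in limma). Of the 3 dimmer Slc2a3 probe sets, 1 did not overlap, at 0.44, and the others lay at -0.061 and 0.083. The sign of Slc2a1 turned in 3 of the 6 fits without an array, over a range of -0.15 to 0.33.

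Hexokinases add the first phosphate. Hk2, the inducible form, gave 1633, 1804 and 1569.8 in WT and 2269, 1651 and 1732 in DKO, and WT replicate 2 lay above 2 of the DKO arrays. Hk3, the form of myeloid cells, gave 159, 567 and 110.2 in WT and 324, 312 and 393 in DKO, where WT replicate 2 was the brightest array of all. Hk1, the widespread form, lay at 0.28 ± 0.39, beside 0.16 ± 0.21 for Hk2 and 0.61 ± 0.51 for Hk3, and none passed (adjusted p between 0.643 and 0.806). A dimmer Hk1 probe set lay higher, at 1.08, without overlap (adjusted p = 0.226), and the mean over both Hk1 probe sets gave 0.68. The 95% interval of the Hk2 difference ran from -0.30 to 0.62. By the brightest probe sets, every pair of hexokinases overlapped within arrays.

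Phosphofructokinase, which commits sugar to glycolysis, is built from subunits of 3 genes, whose differences had both signs. Pfkp, the platelet subunit, gave 893, 1235 and 974 in WT and 2148, 1781 and 2225 in DKO. Each DKO signal was above each WT signal, and the difference was 0.98 ± 0.22 (1.98-fold), just short of the threshold (adjusted p = 0.0560 in limma). It passed in 3 of 16 alternatives, with adjusted p from 0.0316 to 0.205, among them the fit without WT replicate 2 (adjusted p = 0.0347). The 2 dimmer Pfkp probe sets had the same sign, at 0.71 and 0.51.

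The muscle subunit Pfkm gave 724, 502 and 672 in WT and 494, 463 and 321 in DKO. The groups did not overlap, with DKO the lower, and the difference was -0.56 ± 0.30 (adjusted p = 0.433). The liver subunit Pfkl, at -0.36 ± 0.41, overlapped. Within arrays the difference of Pfkm and Pfkp was -0.30, -1.27 and -0.52 in WT and -2.09, -1.91 and -2.73 in DKO. DKO was the lower, at -1.54 ± 0.39, without overlap, at the smallest exact permutation p of 0.1.

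The bifunctional enzymes of the PFKFB family make and remove fructose 2,6-bisphosphate, the strongest activator of phosphofructokinase. Pfkfb3, the form with the highest kinase activity, gave 637, 428 and 535 in WT and 926, 1101 and 725 in DKO. DKO was higher without overlap, at 0.76 ± 0.28 (adjusted p = 0.238 in limma). A second, dimmer Pfkfb3 probe set did not share this, at -0.018. Pfkfb4 was near 135 in WT and lay at -0.45 ± 0.41. The within-array difference of Pfkfb3 and Pfkfb4 was higher by 1.21 ± 0.23 in DKO, without overlap.

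**Figure D3:**
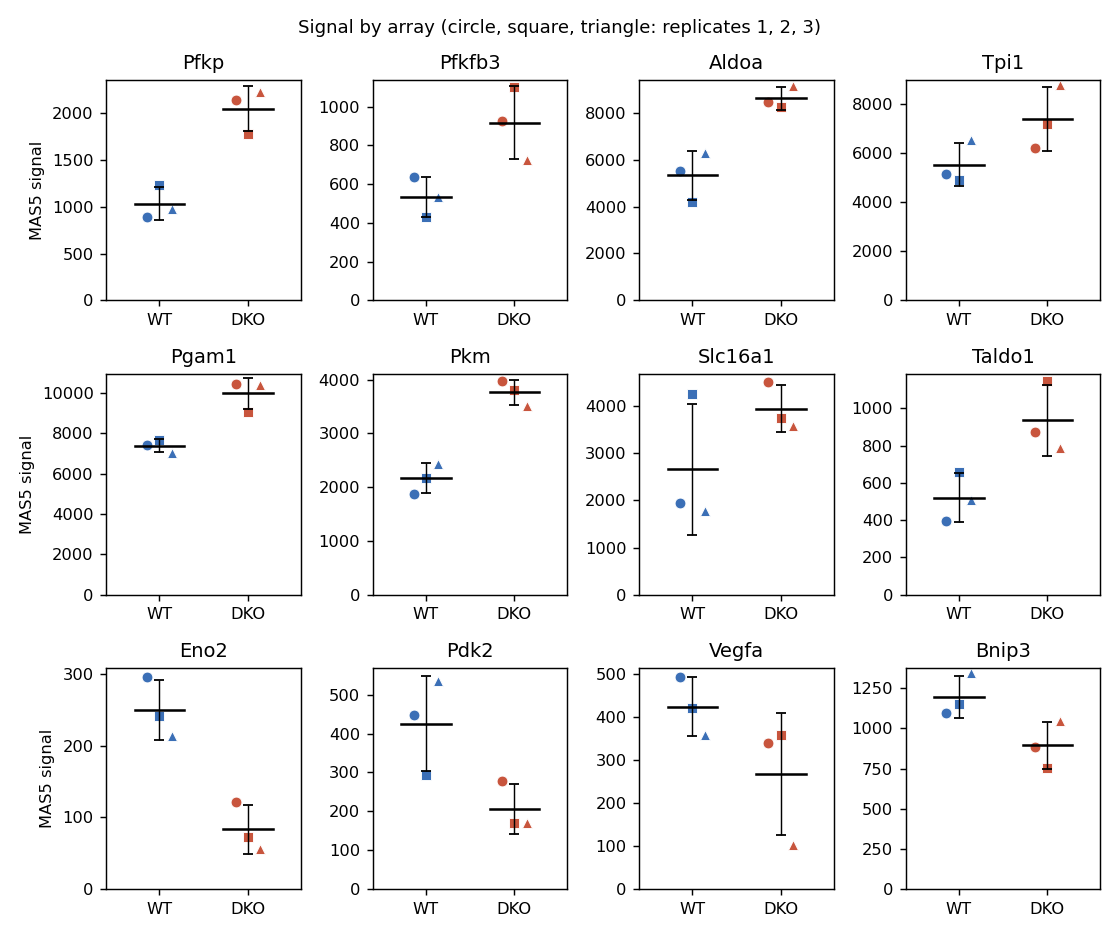
MAS5 signals of 12 of the genes in the 3 WT (blue) and 3 DKO (red) arrays, with the mean and SD of each group as lines and every axis starting at 0. DKO arrays lie above all WT arrays for Pfkp, Pfkfb3, Aldoa, Pgam1, Pkm and Taldo1 and below them for Eno2, Pdk2 and Bnip3, while Tpi1, Slc16a1 and Vegfa overlap.

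Aldolase splits the 6-carbon sugar, and triose phosphate isomerase makes both products usable. Aldoa, the aldolase of muscle and most proliferating cells, gave 5504, 4210 and 6277 in WT and 8438, 8228 and 9151 in DKO. The groups did not overlap, and the difference was 0.71 ± 0.17 (1.63-fold, adjusted p = 0.0729 in limma). All 5 Aldoa probe sets were higher, between 0.50 and 0.88. In 16 alternatives adjusted p ran from 0.0521 to 0.305, so the gene did not pass in any of them.

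Aldoc, the brain form, was dim, with DKO signals from 18.8 to 228 around a WT mean of 121. Tpi1 gave 5177, 4911 and 6552 in WT and 6221, 7206 and 8801 in DKO, where the lowest DKO array lay below the highest WT array. Its difference was 0.41 ± 0.18 (adjusted p = 0.323). The 2 dimmer Tpi1 probe sets lay at 0.42, without overlap, and 0.065, with overlap.

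In lower glycolysis the energy of the sugar is captured as ATP. Pkm, the pyruvate kinase outside liver and red cells, gave 1876, 2175 and 2433 in WT and 3975, 3806 and 3512 in DKO. Each DKO array was above each WT array, and the difference was 0.80 ± 0.18 (1.74-fold, adjusted p = 0.0565 in limma). It passed in 3 of 16 alternatives, over a range of adjusted p from 0.0358 to 0.227. The probe set does not tell the M1 and M2 splice forms apart here, since its position in the gene was not used.

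Pgam1, a phosphoglycerate mutase, gave 7433, 7680.3 and 7033 in WT and 10463, 9080 and 10395 in DKO, a narrow spread with no overlap, and lay at 0.43 ± 0.14 (adjusted p = 0.167). Pgk1, the first enzyme of the pathway to make ATP, was at 9305 ± 906 in WT and 10772 ± 394 in DKO. The 3 DKO arrays were above the 3 WT arrays, and the difference was 0.21 ± 0.14 (adjusted p = 0.517). The dimmer Pgk1 probe sets gave 0.54 and 0.47.

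Both enolases that were measured lay below zero. Eno2, the neuronal form, was dim, with signals of 296, 242 and 213 in WT and 122, 72.2 and 56.2 in DKO. DKO was lower without overlap, at -1.46 ± 0.42, the second largest shift of the 37 genes, and it did not pass (adjusted p = 0.124 in limma). Eno3, the muscle form, lay at -0.23 ± 0.45 around a WT mean of 96.0. The within-array difference of Eno2 and Eno3 was lower in DKO, at -1.24 ± 0.34, without overlap.

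Gapdh, the dehydrogenase between aldolase and Pgk1, was read by 3 control probe sets along its transcript, which stayed outside the fit. The probe set at the 3′ end gave 10417, 10663 and 11544 in WT and 11392, 11418 and 14252 in DKO. The groups overlapped, and the difference was 0.18 ± 0.12 (exact permutation p = 0.3, two-sided). The middle and 5′ probe sets lay at 0.36 ± 0.24 and 0.45 ± 0.27, also with overlap. The ratio of 3′ to 5′ signal, a sign of RNA integrity, was 6.47, 9.69 and 7.81 in WT and 5.79, 4.74 and 9.96 in DKO for Gapdh, and 1.06 to 1.49 over the 6 arrays for beta actin. On this measure the groups overlapped. In every array the Gapdh signal was at least 4.74 times as high at the 3′ end as at the 5′ end, so the overlap does not show intact RNA.

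No gene of the pyruvate dehydrogenase step passed the test. Pdha1, a catalytic subunit, gave 3422, 2776 and 3914 in WT and 3633, 3054 and 4408 in DKO. Its difference was 0.13 ± 0.20, with a 95% interval from -0.31 to 0.57. A dimmer Pdha1 probe set lay at 0.47, with overlap. Pdhb lay at -0.077 ± 0.17 (interval -0.45 to 0.29). Pdk2, a kinase that switches the complex off, gave 449, 293 and 535 in WT and 279, 169 and 169 in DKO. The groups did not overlap, although DKO replicate 1 came close to WT replicate 2, and the difference of -0.99 ± 0.37 did not pass (adjusted p = 0.248 in limma).

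Pdk1, the kinase induced by HIF-1, and Pdk3 had signals that overlapped between groups and lay at 0.11 ± 0.21 and -0.042 ± 0.25. The dimmer Pdk1 probe sets disagreed in sign, at 0.36, 0.12 and -0.39, each with overlap. The sign of Pdk3 was not stable across scalings. Within arrays Pdk1 over Pdk2 was higher in DKO by 1.10 ± 0.39 and Pdk2 over Pdk3 lower, at -0.95 ± 0.25, both without overlap and both at the smallest exact permutation p of 0.1. Pdk4, from the list of other pathway genes, was dim, at 38.2, 31.6 and 20.7 in WT and 164, 84.3 and 97 in DKO, without overlap. Its difference of 1.48 ± 0.47 did not pass either (adjusted p = 0.164 in limma). Every WT signal of Pdk4 was under the filter limit of about 53.2, so it passed the filter through its DKO arrays.

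**Figure D4:**
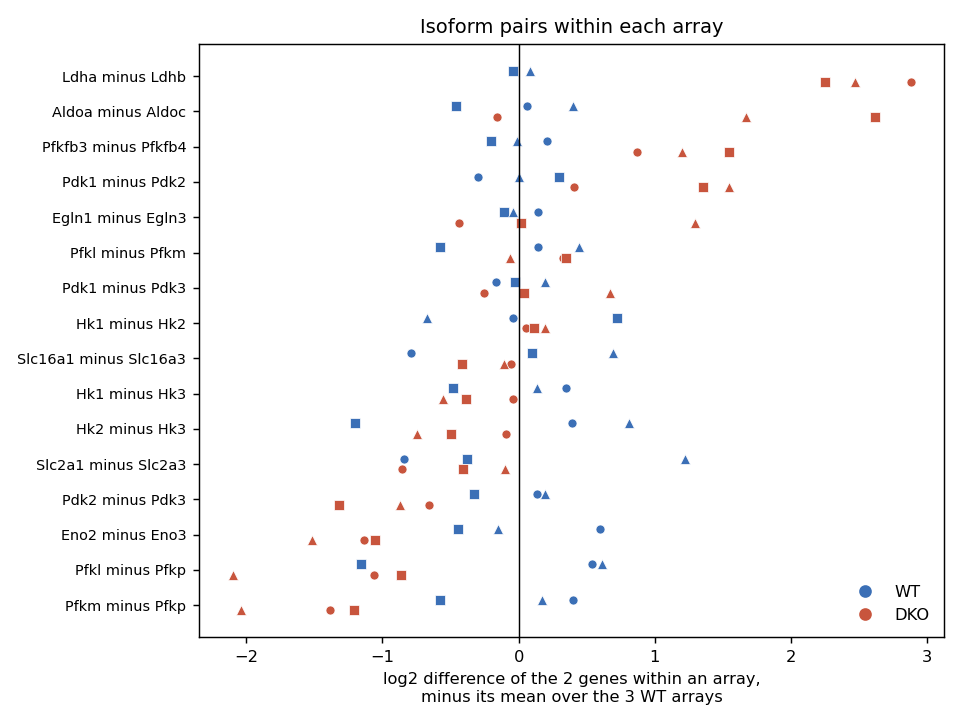
Each row shows 1 of the 16 isoform pairs, with the log2 difference of both genes in each WT (blue) and DKO (red) array, minus its mean over WT (circle, square and triangle are replicates 1, 2 and 3). WT and DKO points separate in 6 pairs, most widely for Ldha minus Ldhb, and mix in the others.

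In the pentose phosphate pathway Taldo1 (transaldolase) and Tkt (transketolase) return sugar to glycolysis, and Rpia is the ribose isomerase. Taldo1 gave 393, 658 and 509 in WT and 871, 1146 and 786 in DKO. DKO was higher without overlap, by 0.84 ± 0.29 (adjusted p = 0.208 in limma). Tkt, the brightest of the 37 genes in WT, had means of 14705 ± 1845 in WT and 16964 ± 4476 in DKO with overlap and lay at 0.18 ± 0.18. Its dimmer probe sets gave 1.38, without overlap (adjusted p = 0.243), and 0.24, with overlap. Rpia lay at 0.14 ± 0.26.

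Pgd, the second NADPH-making enzyme, varied widely between arrays, with 4133, 8012 and 7720.4 in WT and 5715, 9597 and 13389.6 in DKO. Replicate 1 was the lowest array in both groups. The groups overlapped, at 0.51 ± 0.31 (adjusted p = 0.495). Pgls, which opens the lactone between both NADPH steps, was dim and lay at -0.048 ± 0.41, a sign that turned with the scaling.

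The hypoxia control genes lay on both sides of zero, and none passed. Hif1a, the oxygen-regulated subunit of HIF-1, had means of 1850.5 ± 568 in WT and 2138 ± 290.3 in DKO, and its difference of 0.25 ± 0.25 had a 95% interval from -0.30 to 0.79. Its 3 other probe sets lay at -0.35, -0.054 and 0.71, so they disagreed in sign. HIF-1 is controlled largely through the stability of its protein, which arrays do not measure.

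The prolyl hydroxylases Egln1 and Egln3, which mark HIF-1 alpha for destruction, lay at 0.38 ± 0.27 and 0.090 ± 0.26. By its brightest probe set Egln1 was high in 1 DKO array, replicate 3, at 3140.5. A dimmer Egln1 probe set did not share this. It gave 1020.1 in that array and a difference of -0.0072. Vegfa, a target of HIF-1 and a growth factor of vessels, gave 494, 421 and 358 in WT and 339, 359 and 103 in DKO. DKO replicate 3 was far below the rest, and the difference of -0.80 ± 0.45 did not pass (adjusted p = 0.451 in limma). Bnip3, a HIF-1 target of mitophagy, gave 1094, 1152 and 1346 in WT and 882, 755 and 1047 in DKO, lower in DKO without overlap, at -0.42 ± 0.24 (adjusted p = 0.455).

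Of 49 other genes of these pathways, which were not among the 41, 44 had a probe set and 33 passed the filter. None rose and none fell over all probe sets by limma. At an unadjusted p under 0.05, 5 of the 33 were higher and 2 lower. Of all 11529 tested genes, 877 were higher and 997 lower at that limit. The median over the 33 genes was -0.021. The smallest p belonged to Ldhc, the lactate dehydrogenase subunit of testis. It gave 54.3, 109.6 and 14.6 in WT and 600.2, 164 and 497 in DKO, without overlap (2.57 ± 0.60, adjusted p = 0.0653 in limma). On the log2 scale its mean over WT was under the filter limit, a signal of about 53.2. Ldhc thus passed the filter through its DKO arrays. Ddit4, a hypoxia-induced inhibitor of mTOR signalling, came second with 3596, 4411 and 4883 in WT and 5824, 6796 and 6426 in DKO (0.57 ± 0.17, adjusted p = 0.138), also without overlap. Without WT replicate 2 or DKO replicate 2, Ldhc passed (adjusted p = 0.0292 and 0.0491). Bpgm, the red cell enzyme that makes 2,3-bisphosphoglycerate, is given because WT replicate 2, the pool with the highest erythroid sum, also had its highest signal, in 4637, 17357 and 3013 in WT and 2502, 2175 and 2316 in DKO.

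As a check of the labels, Nr4a1 signal was 1065 ± 229.9 in WT and 21.4 ± 12.9 in DKO, while the 3 Nr4a3 probe sets were too dim for the filter. The 2 arrays of a pair correlated at 0.898 to 0.933 within WT, 0.927 to 0.944 within DKO and 0.874 to 0.912 between groups, across probe sets. With each gene centred over the 6 arrays, the mean log2 level of the 37 genes was -0.11, 0.031 and -0.042 in the WT arrays and 0.15, -0.035 and 0.0078 in the DKO arrays, so the groups overlapped on this measure.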

How the data were processed

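The deposited table holds 1 MAS5 signal, a linear intensity, per probe set and array. MAS5 is named in the submitters' processing notes, without a version. In the deposited values each array has a trimmed mean of 500, with 2% left out at each end. Of 45101 probe sets, 64 controls were kept out, and genes were named from platform annotation where it gave 1 symbol (34945 probe sets). Signals became log2(signal + 16), and the 40% with the lowest means were left out. The other 27022 were fitted across all probe sets with limma 3.58.1 in R 4.3.3 (eBayes with an intensity trend, no block), and p-values were adjusted by Benjamini-Hochberg over all of them. The brightest probe set stands for a gene. The 16 isoform pairs were compared by an exact permutation test over arrays, two-sided. The fit was tested on simulated data.

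The genes and lists were chosen with earlier results of these data known. Signals in every array are given for genes past the threshold and the 2 with the smallest p in each step. Pfkm, Pgam1, Slc16a1, Slc16a3, Pdk4 and Bpgm were added after their values were seen. The main fit took the arrays as unpaired. Same-numbered deviations from the group means correlated at 0.14, -0.031 and 0.053. Different-numbered arrays were not compared in this way, so these values cannot decide whether replicate numbers pair the arrays. Promoters came from RefSeq, and motifs were searched on both strands. 0 columns belonged to other samples. Figures used matplotlib 3.10.9 in Python 3.11.15.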

Additional observations from a re-analysis of the deposited data

How the results depend on the processing

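Each fit was repeated with a pseudocount of 1 or 64, without a filter on low values or with the lowest 60% left out, with quantile normalization, median centring, no intensity trend, array quality weights, a replicate block, a gene's probe sets averaged, each array left out in turn and an adjusted p threshold of 0.10. Ldhb stayed lower in all 16 settings it was refitted in and lost its call without an intensity trend. In that setting 0 of the 37 genes and 0.0867% of all genes fell. Against 0 of the 37 genes that rose, the count was 2 with the lowest 60% left out, 1 with quantile normalization, 1 (Ldha) with the replicate block, 1 with averaged probe sets, 3 with array quality weights and 4 at 0.10, and 0 to 2 with an array left out, the 2 being Pfkp and Slc16a1 without WT replicate 2. The share of all genes that rose moved too, from 1.08% in the main fit. It was 1.32% with the lowest 60% left out, 1.15% with quantile normalization and 0.963% with the replicate block. With averaged probe sets it was 0.989%, with array quality weights 1.6% and at 0.10 1.86%. With an array left out it was 0.295% to 1.7%, the highest without WT replicate 2. The replicate block changed no other call of the 37 genes. Among other pathway genes the count that rose was 1 (Ldhc) with array quality weights and at 0.10, and 0 to 1 with an array left out. Median centring moved the median of all tested probe sets by 0.11 and that of the 37 genes to 0.27; it turned Pdk3, Pdhb and Pgls to 0.065, 0.030 and 0.059. Quantile normalization turned Pdk3 and Pgls to 0.011 and 0.090, and array quality weights turned Pgls to 0.067. With an array left out signs turned within -0.15 to 0.33 for Slc2a1, -0.10 to 0.70 for Hk1, -0.12 to 0.11 for Pdk3, -0.0029 to 0.26 for Pdha1, -0.28 to 0.12 for Pgls, -0.022 to 0.32 for Tkt, -0.12 to 0.45 for Rpia, -0.0041 to 0.45 for Hif1a and -0.086 to 0.28 for Egln3. Of the isoform pairs, the mean over probe sets turned Hk1 minus Hk3 to 0.35 and Egln1 minus Egln3 to -0.090, and a pseudocount of 64 turned Slc16a1 minus Slc16a3 to 0.068. With an array left out the range was -0.88 to 0.15 for Slc2a1 minus Slc2a3, -0.22 to 0.48 for Hk1 minus Hk2, -0.086 to 0.42 for Pfkl minus Pfkm, -0.59 to 0.15 for Slc16a1 minus Slc16a3, -0.11 to 0.36 for Pdk1 minus Pdk3 and -0.21 to 0.66 for Egln1 minus Egln3. The causes were not tested. Probe sets with a mean under a signal of about 53.2 were not tested, and 3 arrays per group leave differences of the size of Pfkp or Pkm near the threshold.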

Other observations

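The direction of the differences went with brightness among the 37 genes. Of 16 genes with a mean signal of 2000 or more over both groups, 14 were above zero, from Slc2a1 at 0.062 to Pkm at 0.80, and the 2 below zero were Ldhb and Pdhb. Of 21 dimmer genes 10 were above zero. Among all tested genes the shares above zero were 55.6% of the bright and 47.6% of the dimmer ones, and the medians 0.049 and -0.031, against 0.31 and -0.042 in the 37. The limit of 2000 was chosen after the values were seen. Spearman's rho between mean signal and difference was 0.41 across the 37 genes and 0.077 across all tested genes, as a description across genes that share 6 arrays.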
